A study of Homo sapiens with 21 samples.

Results

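The genes described here are the 73 human ribosomal protein genes whose symbols hold RPL or RPS, a number and at most 1 letter, out of 19974 protein-coding genes of the autosomes and the X chromosome. Pseudogenes, S6 kinases, mitochondrial ribosomal proteins and symbols with L after the number were left out. Of the 73, 43 encode proteins of the large subunit and 30 proteins of the small subunit. They lay on 21 chromosomes, with 12 on chromosome 19 and 4 (RPL10, RPL36A, RPL39 and RPS4X) on the X chromosome. The rule uses the symbols alone.

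Ribosomal proteins bind ribosomal RNA and build the small subunit, which decodes mRNA, and the large subunit, which joins amino acids. The subunits need them in fixed proportions, and in growing cells their genes are among the most strongly transcribed. Their promoters are known for open chromatin and acetylated histones in nearly all cell types, and their mRNAs begin with a run of pyrimidines through which the mTOR pathway controls translation.

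The study silenced or overexpressed HOXD13, a homeobox protein best known for shaping digits, in human melanoma cells. It used 4 established lines (A375, SKMEL-147, SKMEL-5 and 501mel). Of its 21 samples, 15 came with lists of enriched regions and were used here: 4 of ATAC (open chromatin), 8 of K27ac (acetylated lysine 27 of histone H3, a mark of active promoters and enhancers), 2 of CTCF (a zinc finger protein that separates chromatin domains) and 1 of HOXD13-HA (HOXD13 with an HA tag). The other 6 samples (IgG controls and an HA profile of the GFP cells) were not analysed here. Each group used here had 1 library, apart from shNTC with 2 replicates, and no test between groups was run.

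ATAC and K27ac were each listed for 501mel, SKMEL-5, SKMEL-147 and for A375-GFP, A375 cells with a GFP construct. CTCF was listed for 501mel and SKMEL-5. The silencing series held K27ac of A375 with shNTC, read as the non-targeting hairpin, and with shH2 and shH3, hairpins whose target the labels do not name. HOXD13-HA was mapped in A375 only. All cells grew for 72 h with or without doxycycline at 1 µg/ml, without a statement of which samples were given it. Also unstated were the assay of each library (ChIP-seq or CUT&Tag), whether a line was 1 clone, or whether the shNTC replicates were separate cultures. The region names of the 501mel ATAC list contain siNTC, which the label does not mention.

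A gene was counted as having a region when the midpoint of a listed region lay within 2 kb of either gene end. A range beside a share is its 95% Wilson interval, for counting error alone. For comparison the share among all 19974 genes is given. The strength of a region is given as its percentile within its own list by −log10 q, the significance the authors' peak caller attached to it, or as the fold of its summit over the caller's background. Both are the authors' values for single regions. The lists hold no read counts, so depth is unknown and neither value measures an amount that can be compared between libraries.

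The lists held 29176 (HOXD13-HA) to 163102 (SKMEL-147 ATAC) regions. In the silencing series, shNTC had 85977 and 80242 regions, shH2 43634 and shH3 51838. Regions on alternative copies of chromosome segments occurred in the shNTC, shH2, shH3 and A375-GFP ATAC lists and in none of the other 10. Melanocytic genes (MITF, SOX10, PMEL and others) had K27ac at 6 of 8 in 501mel, 6 of 8 in SKMEL-5, 3 of 8 in SKMEL-147 and 4 of 8 in A375-GFP, and genes of undifferentiated melanoma (AXL, EGFR and others) at 0, 2, 5 and 5 of 6. Among 17 genes of keratinocytes, T cells, endothelium and fibroblasts, the 501mel list had 0 and the SKMEL-147 list 1 with K27ac, the SKMEL-5 list 3 and the A375-GFP list 5. Over all genes the share with K27ac was 27.6% in 501mel, 47.7% in SKMEL-5, 25.7% in SKMEL-147 and 57.6% in A375-GFP. The melanocytic count in A375-GFP (4 of 8) and the undifferentiated count in SKMEL-5 (2 of 6) were below these shares.

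The sequences around the starts of 11 members show the element the group is known for. Each window holds 45 bases before the transcription start and 15 from it, 5′ to 3′ on the gene's strand, from RefSeq (GRCh38.p14). Capitals mark a pyrimidine tract, counted from a C within 5 bases of the start that is followed by at least 4 bases of C or T. The run of pyrimidines can reach further upstream, as in RPL7A. RPL26 is shown as the 1 member with a HOXD13-HA region. RPL7A and RPS6 are shown for their strong acetylation, RPS19 and RPL11 for strong CTCF regions, RPS14 as a member with ETS sites, and RPS18 and RPS9 for their missing K27ac regions. In RPS27A, RPS4X and RPL10 no such C lay within 5 bases of the annotated first start.
RPL26 (chr17:8383179-8383238, minus strand): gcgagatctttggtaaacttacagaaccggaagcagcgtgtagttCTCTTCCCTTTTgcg
RPL7A (chr9:133348173-133348232, plus strand): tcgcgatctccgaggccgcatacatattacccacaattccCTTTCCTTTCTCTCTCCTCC
RPS6 (chr9:19380222-19380281, minus strand): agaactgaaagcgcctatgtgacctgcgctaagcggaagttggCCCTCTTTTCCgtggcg
RPS19 (chr19:41860210-41860269, plus strand): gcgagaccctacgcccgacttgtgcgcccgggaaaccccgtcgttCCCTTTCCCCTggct
RPL11 (chr1:23691734-23691793, plus strand): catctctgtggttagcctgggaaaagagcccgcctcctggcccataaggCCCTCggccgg
RPS14 (chr5:150449725-150449784, minus strand): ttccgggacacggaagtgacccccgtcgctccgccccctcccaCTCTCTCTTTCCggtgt
RPS18 (chr6:33272030-33272089, plus strand): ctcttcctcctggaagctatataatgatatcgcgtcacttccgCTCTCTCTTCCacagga
RPS9 (chr19:54200813-54200872, plus strand): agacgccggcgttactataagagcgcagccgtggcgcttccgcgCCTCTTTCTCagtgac
RPS27A (chr2:55231858-55231917, plus strand): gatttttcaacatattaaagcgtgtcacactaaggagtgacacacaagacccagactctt
RPS4X (chrX:72277234-72277293, minus strand): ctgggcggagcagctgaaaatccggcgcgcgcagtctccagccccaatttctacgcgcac
RPL10 (chrX:154398020-154398079, plus strand): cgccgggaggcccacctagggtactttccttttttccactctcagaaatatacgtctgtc

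The promoter table held a start for 58 of the 73 members and for 15812 genes in all. Such a tract was found in 45 of 58 members (77.6%, 65.3 to 86.4), against 22.1% of all promoters. The bases from the start itself read C and then at least 4 of C or T in 38 (65.5%, 52.7 to 76.4), against 4.59%, tracts that began upstream included. Within 250 bases before and 50 after the start, on either strand, the ETS core CCGGAA was found in 32 of 58 (55.2%, 42.5 to 67.3) against 22.7%. The YY1 form GCCATNTT was found in 10 (17.2%, 9.64 to 28.9) against 7.91%. AAGATGGC, whose reverse complement is an instance of that form, was found in 6 (10.3%, 4.83 to 20.8) against 3.86%. The palindrome CTCGCGAG was found in 6 (10.3%, 4.83 to 20.8) against 1.54%. The GC box GGGCGG was found in 32 (55.2%, 42.5 to 67.3) against 58.3%, and TATAAA in 4 (6.90%, 2.71 to 16.4) against 9.75%. Both of these last intervals hold the share of all promoters. TTTTATTG, a form bound by posterior HOX proteins, was found in 0 of 58 (interval up to 6.21%) and in 1.04% of all promoters. These counts describe letters in a window and do not show binding.

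All 73 members had open chromatin in 501mel, A375-GFP and SKMEL-147, and 70 (95.9%, 88.6 to 98.6) had it in SKMEL-5. The shares over all genes were 72.3% in 501mel, 78.7% in A375-GFP, 80.1% in SKMEL-147 and 63.6% in SKMEL-5. RPL14, RPL19 and RPL36 had none in SKMEL-5, the shortest ATAC list. All 4 lines together were open at 70 members, against 59.1% of genes.

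In strength the members stood close to other open gene ends. The median percentile of their strongest ATAC region was 89.7 in 501mel, 91.7 in A375-GFP, 87.6 in SKMEL-147 and 62.1 in SKMEL-5. All genes with a region had medians of 83.7, 88.7, 84.9 and 68.4. In 3 lines the members lay above that median, and in SKMEL-5 they lay below it.

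K27ac marked the members far more often than genes in general. In 501mel, 70 of 73 had a region (95.9%, 88.6 to 98.6) against 27.6% of all genes, and RPL39, RPS20 and RPS4X had none. In SKMEL-147, 67 had one (91.8%, 83.2 to 96.2) against 25.7%, and RPL5, RPL10, RPL14, RPL30, RPL39 and RPS25 had none. SKMEL-5 listed all 73 (100%) against 47.7%, and A375-GFP 72 (98.6%, 92.6 to 99.8) against 57.6%. RPL39, a small large-subunit protein encoded on the X chromosome, was the only member with none in both 501mel and SKMEL-147.

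In the silencing series, shNTC listed 66 members in replicate 1 (90.4%) and 69 in replicate 2 (94.5%), against 59.8 and 58.3% of all genes. The hairpin libraries listed 71 each (97.3%), against 42.8% with shH2 and 53.2% with shH3. The lower shNTC counts came from the midpoint rule: very wide regions had midpoints over 2 kb from both gene ends. By any base of a region, 71 members were acetylated in each shNTC replicate and all 73 in A375-GFP. The members that the midpoint rule missed there were RPL27A in A375-GFP and both replicates, RPL29 in both replicates, and RPL36, RPL38 and RPS6 in replicate 1.

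**Figure D1:**
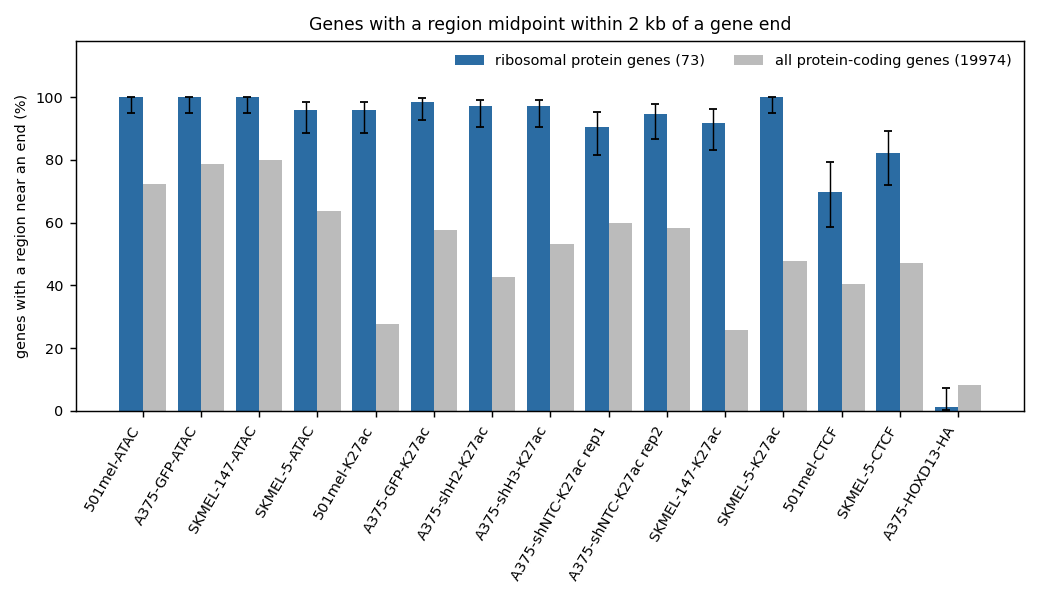
Share of genes (percent, vertical axis) with a region midpoint within 2 kb of a gene end in each of the 15 libraries, for the 73 ribosomal protein genes (blue, bars show 95% Wilson intervals) and all 19974 protein-coding genes (grey). The ribosomal protein genes stand above all genes in every ATAC, K27ac and CTCF library and below them for HOXD13-HA (1.37 against 8.14%).

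Taking lines together, 64 members (87.7%, 78.2 to 93.4) had K27ac in 501mel, SKMEL-5, SKMEL-147 and A375-GFP, against 12.9% of all genes. Both open chromatin and K27ac in all 4 lines were listed for 62 members (84.9%), against 12.3%. The 77 mitochondrial ribosomal protein genes, which build the separate ribosome of mitochondria, had ATAC regions about as often, at 76 in 501mel and 77 in SKMEL-147. They had K27ac at 35 (45.5%) in 501mel, 29 (37.7%) in SKMEL-147 and 60 (77.9%) with shH2. The counts were 75 (97.4%) in A375-GFP, 73 (94.8%) in SKMEL-5, 74 (96.1%) in each shNTC replicate and 70 (90.9%) with shH3.

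Lists of related genes were counted in the same way. Of 17 translation factors and other genes whose mRNAs begin with the pyrimidine tract (EEF1A1, EEF2, TPT1 and others), 15 had K27ac in 501mel, 12 in SKMEL-147, 16 in A375-GFP and 17 in SKMEL-5. Of 20 ribosome biogenesis factors (NCL, FBL, NOP56 and others), 11, 8, 18 and 19 did in the same order, and of the 8 paralogs with L after the number 4, 4, 7 and 5. Of 12 hepatocyte genes, 0, 1, 4 and 1 did. Among the members, 20 genes are mutated in Diamond-Blackfan anaemia, an inherited failure of red cell production. Of these, 19 had K27ac in 501mel and 19 in SKMEL-147, and all 20 had it in the other 6 lists.

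The members' acetylated regions ranked high within their lists. By any base of a region, the median percentile was 99.1 in A375-GFP, 96.3 and 95.5 in shNTC, 95.9 in shH2 and 92.1 in shH3. It was 84.5 in SKMEL-5, 84.3 in SKMEL-147 and 80.9 in 501mel. In A375-GFP, 71 of 73 members lay above the 90th percentile of the list, and 15 of 70 did in 501mel. The same share over all genes was not computed. For all genes only midpoints were used. By midpoints the members' medians were 98.9 in A375-GFP, 95.8 and 95.5 in shNTC, 95.4 in shH2 and 92.1 in shH3. All genes with a region had 83.2, 81.3, 78.8, 67.1 and 74.3. In SKMEL-5, SKMEL-147 and 501mel the members had 84.1, 83.7 and 80.2, against 68.7, 57.7 and 62.6. The median width of the members' regions by any base ran from 1133 bp in SKMEL-147 to 3686 bp in shNTC replicate 1, where the widest reached 15698 bp. By midpoints it was 1133 and 3263 bp in these 2 lists, against 519 and 1333 bp for all genes with a region.

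The values of single members below are also by any base. RPL7A, a large-subunit protein that contacts ribosomal RNA, had the highest median over the lists, 99.5. Its percentile was 97.0 in 501mel, 95.3 in SKMEL-147, 93.3 in SKMEL-5 and 99.5 or above in the 5 lists of A375, with summit folds from 11.1 to 56.8. RPS26, near the mRNA exit, had a median of 99.2 and a low of 62.6 in 501mel. RPS6, the substrate of S6 kinase, had 99.1 with a low of 73.1 in 501mel. RPS19, the gene most often mutated in Diamond-Blackfan anaemia, had 99.0, with 80.8 in 501mel, 92.4 in SKMEL-147, 85.4 in SKMEL-5 and at least 99.0 in A375. RPS3, a small-subunit protein at the mRNA entry, also had 99.0, and RPS16 and RPL12 had 98.4 and 98.0. The lowest value came from SKMEL-5 for RPL7A and from 501mel for the others named here. By midpoints the 5 highest were RPL7A, RPS26, RPS6, RPS16 and RPL12.

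At the other end stood RPL14 (median 70.6), RPS9 (71.6), RPL34 (72.6), RPS28 (78.9) and RPL36A (79.0). The median of RPS9 rests on 4 lists without the silencing series and that of RPL14 on 7, so they are not level with medians over 8 lists that differ in rank. RPL14 had percentiles of 40.4 in 501mel, 69.6 in SKMEL-5, 84.2 in A375-GFP, 76.8 and 69.7 in shNTC, 89.5 in shH2 and 70.6 in shH3, and no region in SKMEL-147. RPL34 had 54.9 in 501mel, 21.1 in SKMEL-147, 65.2 in SKMEL-5, 97.1 in A375-GFP, 82.3 and 79.9 in shNTC, 83.3 in shH2 and 59.2 in shH3. Both genes lay below the members' median in every list that had a region for them.

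The spread between lists was largest for RPL13 (90.9 percentile points), RPL10 (89.7), RPL22 (88.9), RPS23 (79.4) and RPL8 (78.4). In each the low value came from 501mel or SKMEL-147. RPL10, at the peptidyl transferase centre and on the X chromosome, had 8.51 in 501mel and 86.6 to 98.2 in SKMEL-5 and A375, and no region in SKMEL-147. RPL13 and RPL22 each had 8.89 in SKMEL-147, where their summits stood at 3.24 times the background.

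**Figure D2:**
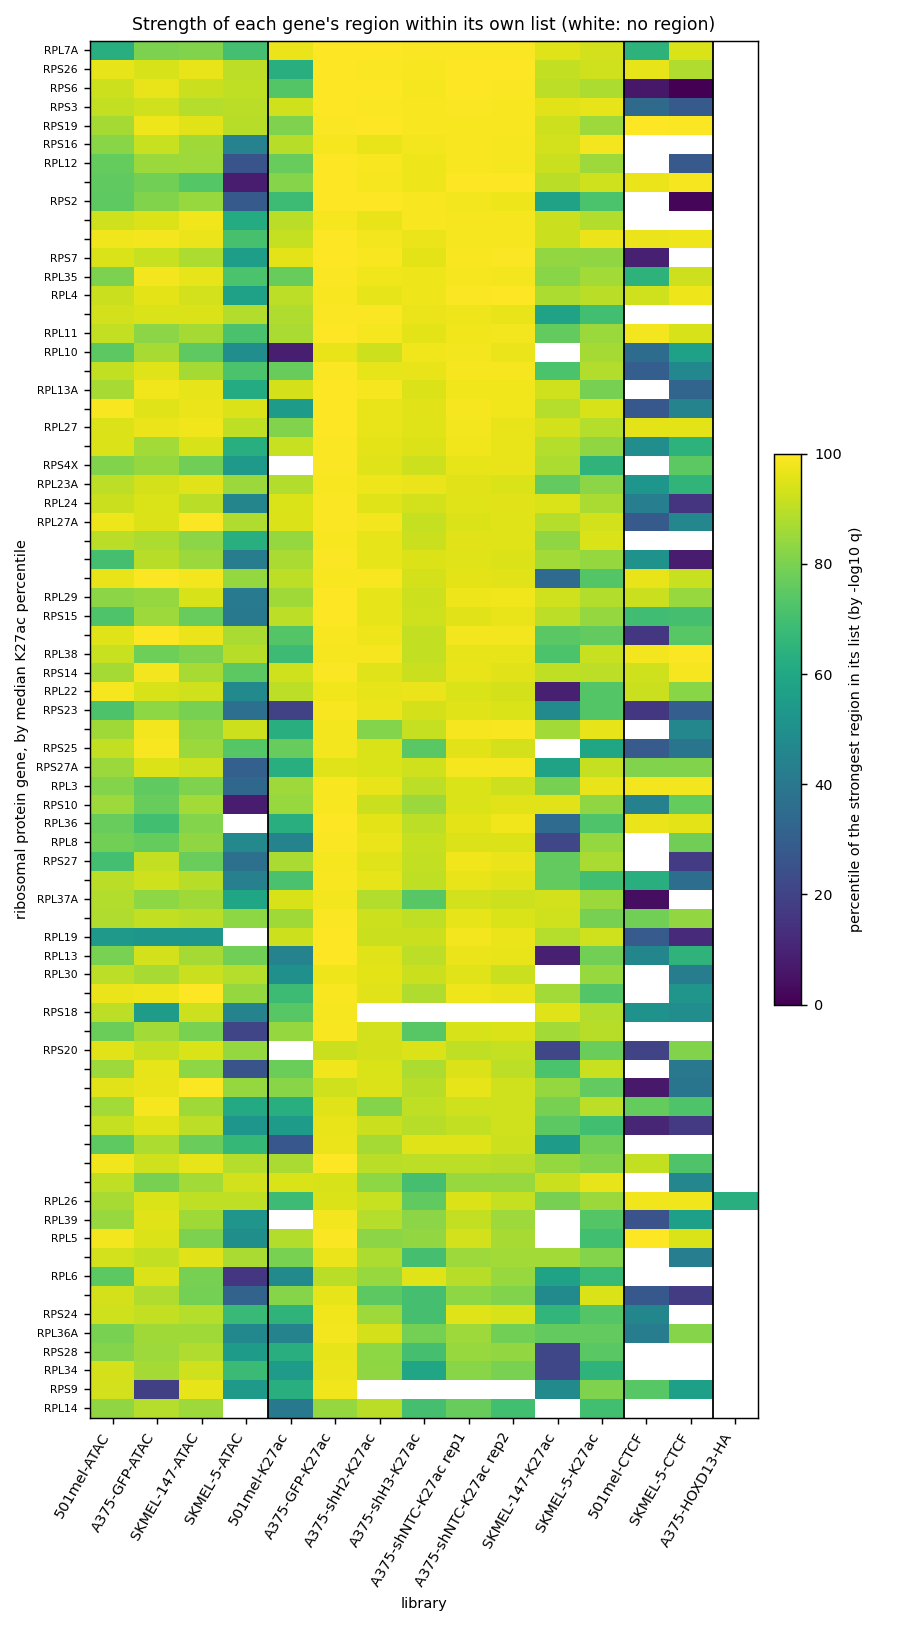
Percentile of each member's strongest region within its own list (colour, 0 to 100, by −log10 q) for 73 ribosomal protein genes (vertical axis, ordered by median K27ac percentile) in 15 libraries (horizontal axis). White marks no region, and genes named in the text are labelled. K27ac counts any base within 2 kb of a gene end and the other lists the midpoint. RPL7A stands at the top and RPL14 at the bottom, RPS18 and RPS9 are white in shNTC, shH2 and shH3, and RPL26 holds the only HOXD13-HA region.

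Other members with known roles lay between. RPL5 and RPL11, which hold back MDM2 and so stabilise p53 when ribosome assembly fails, had medians of 87.0 and 97.0. RPS14, whose loss of 1 copy underlies the anaemia of the deletion of 5q, had 94.0, and RPS27A, made as a fusion with ubiquitin, 93.6. RPL13A, a common reference gene for expression, had 96.2. On the X chromosome, RPS4X had 95.2, RPL39 87.1 and RPL36A 79.0.

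RPS18 and RPS9 had no K27ac region in any of the 4 silencing libraries, also by any base. RPS18 lies in the MHC (chromosome 6, 33272075 to 33276511) and RPS9 in the leukocyte receptor cluster (chromosome 19, 54200858 to 54207647), segments with alternative copies in the genome assembly. In the other 4 K27ac lists RPS18 had percentiles from 74.1 in 501mel to 98.6 in A375-GFP, and RPS9 from 47.3 in SKMEL-147 to 97.9 in A375-GFP. Both had ATAC regions in all 4 lines, with RPS9 lowest in A375-GFP (19.0) and RPS18 lowest in SKMEL-5 (44.7) and next lowest in A375-GFP (55.0). The MHC held 1.09 to 2.14% of chromosome 6 regions in the silencing lists, 3.82% in A375-GFP ATAC and 5.31 to 11.2% in the other lists apart from HOXD13-HA (1.93%). The 4 K27ac lists without these 2 members all held regions on alternative copies. So did the A375-GFP ATAC list, which had regions at both. The part of the alternative copies was not tested.

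Around the 58 annotated starts, open chromatin was centred just upstream, and the summits of acetylated regions lay downstream in most members. ATAC regions covered the start itself in 94.8% of members in 501mel and A375-GFP, 96.6% in SKMEL-147 and 72.4% in SKMEL-5, against 58.1, 66.5, 64.4 and 45.8% of other genes. The median ATAC summit lay before the start, at -77.5 bp in 501mel, -58.5 bp in A375-GFP, -76.5 bp in SKMEL-147 and -51.0 bp in SKMEL-5. At 500 bp into the gene, ATAC covered 10.3% of members in 501mel and 24.9% of other genes.

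The position of K27ac differed between the libraries. In 501mel, a region covered the start in 8 of 58 members (13.8%) and the base 500 bp into the gene in 47 (81.0%). In SKMEL-147 these were 13 (22.4%) and 43 (74.1%). In SKMEL-5 the start was covered in 56 (96.6%), in A375-GFP in 48 (82.8%) and in shNTC in 44 and 45 (75.9 and 77.6%). Between these stood shH2 with 38 (65.5%) and shH3 with 32 (55.2%). Fewer members had a K27ac region with a −log10 q of at least 10 in 501mel and SKMEL-147. The shares were 41.1 and 47.9% of the 73 members, against 89.0 to 97.3% in the other lists. Over all genes they were likewise lowest in these 2 lists, at 6.81 and 4.70%, against 19.7 to 45.1%. Depth is unknown, so this cutoff does not compare amounts of acetylation between libraries. Other genes also had the lowest cover at the start in 501mel (3.07%) and SKMEL-147 (2.79%), and in 501mel 9.40% were covered at 500 bp. The median summit lay 500 bp into the gene in 501mel and 436 bp in SKMEL-147, and 195 to 243 bp in the other 6 lists. K27ac regions also reached upstream. At 500 bp before the start they covered 74.1 and 69.0% of members in shNTC, 70.7% in SKMEL-5 and 58.6% in shH3. The shares there were 48.3% in A375-GFP, 36.2% in shH2, 15.5% in SKMEL-147 and 13.8% in 501mel.

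**Figure D3:**
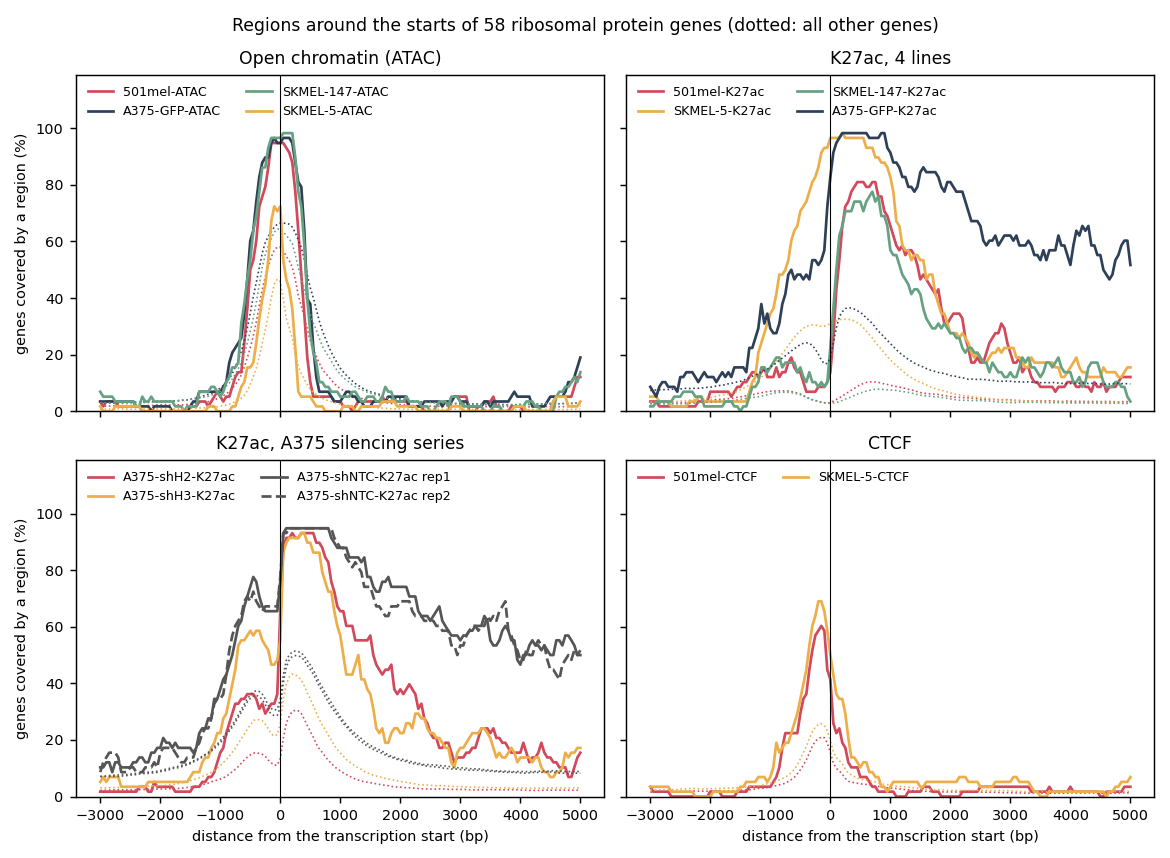
Share of genes covered by a region (percent, vertical axis) from 3 kb before to 5 kb after the first annotated start (horizontal axis, bp) for 58 ribosomal protein genes (solid or dashed lines) and all other genes (dotted). ATAC peaks at the start, CTCF just before it, and K27ac after it. In 501mel and SKMEL-147 K27ac covers 13.8 and 22.4% of members at the start, against 96.6% in SKMEL-5.

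CTCF lay near 51 members in 501mel (69.9%, 58.6 to 79.2) and 60 in SKMEL-5 (82.2%, 71.9 to 89.3), against 40.3 and 47.0% of all genes. Both lines listed it at 48 (65.8%, 54.3 to 75.6), against 35.5%. Among genes that were open and acetylated in the same line, the members' share was closer to the rest: 49 of 70 (70.0%) against 66.1% in 501mel, and 58 of 70 (82.9%) against 71.8% in SKMEL-5. The first interval (58.5 to 79.5) holds the share of all such genes, and the second (72.4 to 89.9) lies just above it. Mitochondrial ribosomal protein genes had CTCF at 48 of 77 (62.3%) and 57 (74.0%).

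The strengths of these CTCF regions were those of common CTCF regions. Their median percentiles were 52.7 in 501mel and 65.4 in SKMEL-5, against 58.4 and 58.4 for all genes with a CTCF region. Single members stood higher: RPS19 at 99.7 and 99.4 in 501mel and SKMEL-5, RPL11 at 98.3 and 94.1, RPL26 at 98.0 and 97.8, and RPL5 at 99.7 and 94.3. RPS6 stood low in both, at 6.31 and 0.389. The median CTCF summit lay before the start in both lines (-118 and -120 bp), and that of RPL11 lay at -80 bp in both.

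Regions differed between the lines at 15 members. RPL37A, RPS7 and RPS24 had CTCF in 501mel only, and 12 had it in SKMEL-5 only, among them RPL12, RPL13A, RPS2 and RPS4X. In 10 members neither line had one, among them RPL6, RPL14, RPL34, RPS16 and RPS28. The SKMEL-5 list was longer (51015 against 39473 regions), and its part in the difference was not tested. The letters AGGGGGC, part of the CTCF motif, stood in 5 of 58 promoters (8.62%, 3.74 to 18.6) against 17.7% of all, which the interval holds. These 5 (RPL4, RPL29, RPL38, RPS14 and RPS15) were among 40 members with CTCF in both lines, and 0 of 7 with CTCF in neither held them. With 7 members such a difference was not detectable.

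The 250 bases before the starts of RPL26, RPL11 and RPS14 are shown for these CTCF regions, which overlapped them in both lines. They are given 5′ to 3′ on the gene's strand from RefSeq (GRCh38.p14). Capitals mark CCGGAA (ETS), the YY1 forms and AGGGGGC (CTCF core) on either strand. RPL26 and RPL11 each held 1 ETS core and no CTCF core.
RPL26 (chr17:8383194-8383443, minus strand): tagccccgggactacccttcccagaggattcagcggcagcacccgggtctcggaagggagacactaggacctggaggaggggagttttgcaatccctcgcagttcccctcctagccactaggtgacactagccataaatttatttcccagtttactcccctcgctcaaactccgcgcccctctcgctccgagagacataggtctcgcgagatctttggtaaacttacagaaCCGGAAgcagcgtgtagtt
RPL11 (chr1:23691529-23691778, plus strand): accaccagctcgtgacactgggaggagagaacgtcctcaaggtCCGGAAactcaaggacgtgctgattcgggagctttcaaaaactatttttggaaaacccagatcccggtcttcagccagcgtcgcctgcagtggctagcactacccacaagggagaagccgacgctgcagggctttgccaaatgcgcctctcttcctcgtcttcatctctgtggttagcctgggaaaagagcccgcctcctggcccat
RPS14 (chr5:150449740-150449989, minus strand): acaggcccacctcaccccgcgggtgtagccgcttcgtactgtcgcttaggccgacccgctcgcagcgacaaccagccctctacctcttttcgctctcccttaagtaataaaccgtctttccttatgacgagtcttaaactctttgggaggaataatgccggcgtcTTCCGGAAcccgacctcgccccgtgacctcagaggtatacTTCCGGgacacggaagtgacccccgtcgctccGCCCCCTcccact

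Tagged HOXD13 was nearly absent from the members. It was listed near 1 of 73 (1.37%, 0.242 to 7.36), against 8.14% of all genes. Among genes open and acetylated in A375-GFP it was near 1 of 72 members against 10.3%, and among the members and such genes with a length between the members' 10th and 90th percentile (2428 to 12387 bp) near 1 of 72 against 7.07%. Among genes open and acetylated in all 4 lines it was near 1 of 62 members (1.61%, 0.285 to 8.59) against 11.3%. The interval for 72 members reached 7.46%, which includes the 7.07% of genes of like length and activity, so a difference from those genes was not detectable with this number of members. Of the mitochondrial ribosomal protein genes 1 of 77 had a region (1.30%), of the 17 translation factors 3 (EIF3H, EIF3L and NAP1L1) and of the 20 biogenesis factors 2 (GAR1 and UTP4).

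The member was RPL26, a large-subunit protein that also binds p53 mRNA. The HOXD13-HA region (chromosome 17, 8383648 to 8383865, 218 bp) had a fold of 4.42, a −log10 q of 7.11 and the 63.0 percentile of its list. It lay 455 bp upstream of the RPL26 start at 8383193, beside the neighbouring gene KRABD2. It lay wholly inside open chromatin of A375-GFP (8382830 to 8384063) and inside acetylated regions of A375-GFP (8383462 to 8383996) and both shNTC replicates. With shH3 a weak acetylated region (8383378 to 8383928, fold 2.82) covered it, and with shH2 none did. The CTCF regions of 501mel and SKMEL-5 at RPL26 ended before it, at 8383566 and 8383576.

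The next nearest HOXD13-HA regions lay 3094 bp from RPL3 (fold 2.75), 3425 bp from RPS15 (4.95), 5701 bp from RPL37A (8.69), 7737 bp from RPL35 (5.45) and 8019 bp from RPL27 (6.30). Within 10 kb of a gene end, 6 members (8.22%) had a HOXD13-HA region. This compares with 17.1% of other genes of like length, open and acetylated in A375-GFP, and 19.5% of mitochondrial ribosomal protein genes. Within 50 kb the shares were 47.9% of members, 49.0% of genes of like length and activity, and 44.2% of mitochondrial ribosomal protein genes. The median distance was 54673 bp for the members and 51384 bp for genes of like length and activity. The members' shares were thus lower at 10 kb and close to the others at 50 kb, and this difference was not tested.

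**Figure D4:**
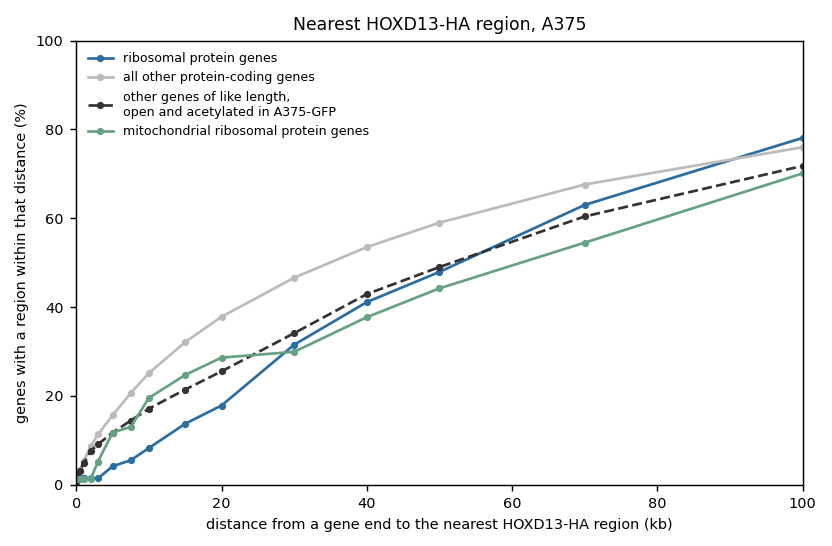
Share of genes (percent, vertical axis) with a HOXD13-HA region within a given distance of a gene end (kb, horizontal axis) in A375. The 73 ribosomal protein genes (blue) lie at 8.22% at 10 kb, below 17.1% for 2603 other genes of like length that were open and acetylated in A375-GFP (dashed), and meet them at 50 kb (47.9 and 49.0%).

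With shH2 and shH3 no member lost its acetylation. A gene counted as lost when a region was near it in both shNTC replicates and in neither hairpin library, which held for 0 of 73 members (interval up to 5.00%) and 5.58% of all genes. Only 66 members had a region in both replicates and could be lost by this rule. Of these 0 were lost (interval up to 5.50%), against 9.84% of all genes with a region in both. The reverse held for 2 members (2.74%, 0.755 to 9.45), RPL27A and RPL29, against 0.531% of genes. Both had wide acetylated regions in shNTC whose midpoints lay away from the gene ends, and by any base no member was gained.

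Single regions were lost. Of 117 regions near the members that both shNTC replicates listed, 22 (18.8%, 12.8 to 26.8) overlapped none in shH2 and shH3, against 23.7% of all such regions near gene ends. The share depended on the rule: it was 47.9% against 47.5% where 50% of the region had to be shared, 30.6% against 33.5% without shNTC replicate 2, and 30.8% against 43.7% for shH2 alone. They belonged to 15 members. All but RPL11 kept another region counted the same way, and RPL11 kept 1848 and 1381 bp of acetylated chromatin with shH2 and shH3. The lost regions were weak ones: in 10 classes of equal size by −log10 q, the weakest 5 held all 22, with 8 of 10 lost in the first and 1 of 4 in the fifth. Of the 74 member regions in the 5 strongest classes 0 were lost, and 51 of these were in the strongest class. Over all gene ends, 82.3% were lost in the weakest class and 0.221% in the strongest. With all lists held to 43634 regions, the length of the shH2 list, 1 of 79 member regions (1.27%) was lost, against 10.4%.

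The lost regions lay at the far ends of the genes. For the members with an annotated start, 40 regions covered the start and 0 were lost, against 5.19% of those of other genes. Of 16 that lay nearer the start without covering it 1 was lost (6.25%, against 24.2%), a region at RPS15. Of 37 nearer the other end 18 were lost (48.6%, against 47.8%). The numbers at and near the start are small and no interval was computed, so no difference from other genes is drawn from them. Nor was strength held equal: 51 of the 117 member regions were in the strongest class, where 0.221% over all gene ends were lost. At RPL26 the regions from 8376300 to 8378478 and from 8378714 to 8379181, over and near the downstream end, were lost while the promoter region was kept. RPL24, RPL37A and RPS10 likewise lost a region over the downstream end. At RPL11 a region 403 bp beyond the gene was lost, with a −log10 q of 3.94.

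The acetylated chromatin was narrower with the hairpins at nearly all members. Within 2 kb of the gene ends, K27ac covered a median of 4583 and 4223 bp in shNTC, 2156 bp with shH2 and 2142 bp with shH3 over 71 members. For each member the mean hairpin width was divided by the mean shNTC width. The median of this ratio was 0.541 (quartiles 0.420 and 0.671), and the median ratio of shNTC replicate 2 to replicate 1 was 0.987. In 69 of 71 members (97.2%, 90.3 to 99.2) both hairpin libraries were narrower than both replicates, against 87.4% of all genes acetylated in all 4 libraries and 95.5% of other genes with a shNTC width between the members' 10th and 90th percentile (2444 to 6373 bp). With lists of equal length it was 62 of 71 (87.3%), against 82.2% of other genes and 90.4% of those of like width. In the full lists the exceptions were RPS20 and RPL39, and 0 members were wider in both hairpin libraries.

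Other genes were narrower to a like degree. Other genes had a median ratio of 0.528, and those of like shNTC width 0.493. By hairpin, the members' ratio was 0.471 with shH2 and 0.573 with shH3, against 0.404 and 0.640 over other genes. With lists of equal length, the ratio over both hairpins was 0.602 for the members and 0.576 for other genes. The hairpin lists were shorter than the shNTC lists as a whole, and depth, which the files do not give, cannot be told apart from silencing in these widths.

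Members differed widely in this ratio. RPS27, a small-subunit zinc finger protein, covered 4026 and 3997 bp in shNTC, 873 bp with shH2 and 1056 bp with shH3 (ratio 0.240). RPS10 covered 5506 and 3374 bp, then 1190 and 1074 bp (0.255), and RPS14 5900 and 5975 bp, then 1862 and 1681 bp (0.298). For each of these the hairpin values lay far below both shNTC values.

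The smallest changes were at RPL39, RPS20, RPL8, RPS2 and RPL27A. RPL39 covered 1961 and 1983 bp in shNTC, 2249 bp with shH2 and 1642 bp with shH3 (0.987), and RPS20 1412 and 1091 bp, then 1375 and 1085 bp (0.983). In both the shH2 value lay within or above the shNTC values. At RPL8 the whole window of 6622 bp was acetylated in shNTC replicate 1, so its width could not show how far the region reached beyond. RPL23A, where the whole window of 8002 bp was acetylated in shNTC, kept 6833 and 7258 bp (0.880), and neighbours on both sides (RAB34 and TLCD1) share that window.

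**Figure D5:**
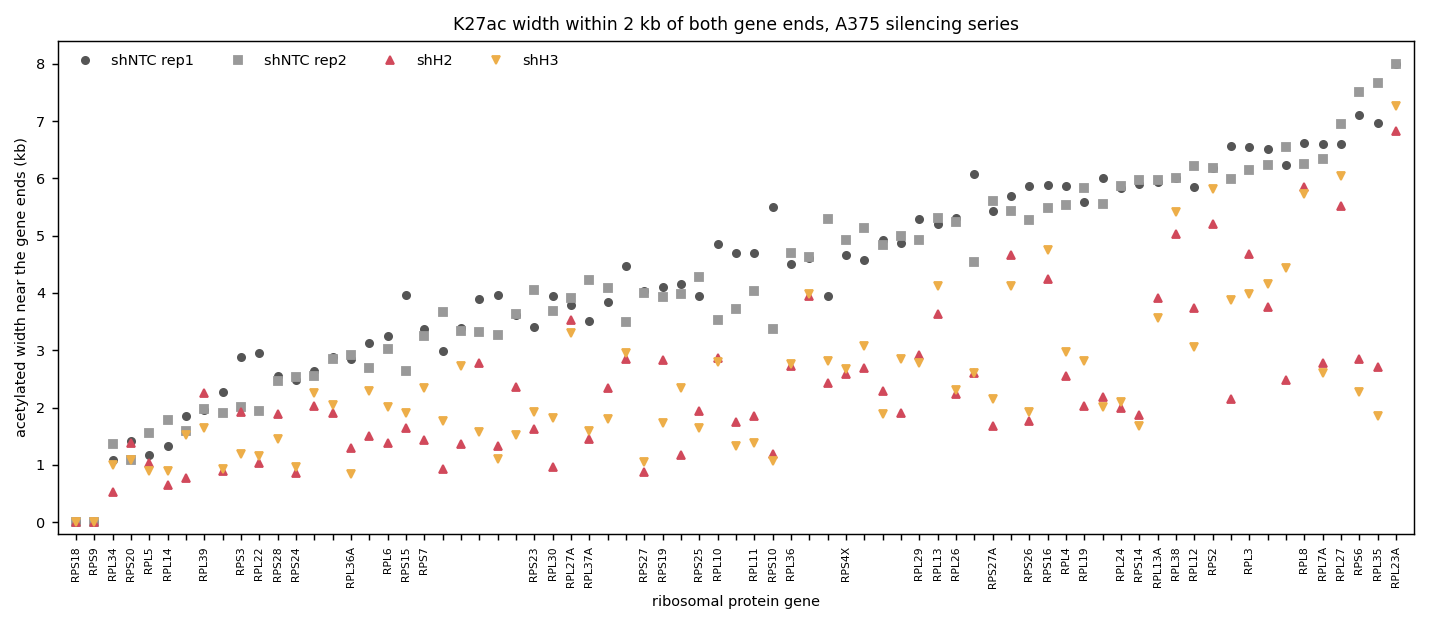
Width of chromatin in K27ac regions within 2 kb of both gene ends (kb, vertical axis) for each of 73 ribosomal protein genes (horizontal axis, ordered by mean shNTC width, genes named in the text labelled) in shNTC replicates 1 and 2, shH2 and shH3. Both hairpin points lie below both shNTC points in 69 of 71 members, and RPS18 and RPS9 have no region in any of the 4 libraries.

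In lists of equal length the members' median percentile was 91.7 in both shNTC replicates, 95.4 with shH2 and 90.6 with shH3. For all genes it was 69.8, 68.9, 67.1 and 71.3. In the full lists, the start was covered in 75.9 and 77.6% of members in shNTC, 65.5% with shH2 and 55.2% with shH3. Cover at 500 bp into the gene was 94.8% in both shNTC replicates, 93.1% with shH2 and 89.7% with shH3, and at 2000 bp it was 74.1 and 69.0%, then 37.9 and 22.4%. At 2000 bp other genes had 13.3 and 12.8% in shNTC, 3.32% with shH2 and 5.34% with shH3. In the full lists cover was thus lower with both hairpins at the start and at 2000 bp, in the members and in other genes. At 500 bp the members' cover changed little, while that of other genes was clearly lower with both hairpins. The difference at 500 bp was not tested. Cover was not computed in lists of equal length.

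A neighbouring protein-coding gene had an end within 2 kb of 34 members, and regions there cannot be assigned to 1 gene. Without these members the median ratio of widths was 0.544 over 38 members, and HOXD13-HA was near 0 of 39.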

How the data were processed

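Regions of ATAC, K27ac, CTCF and HOXD13-HA came from 15 deposited lists, 1 per library, on hg38. The submitters' processing notes name MACS2, Bowtie2, Trim Galore, deepTools and SAMtools. Versions, settings and control libraries are not given in the sources used here. The labels' extract protocol describes RNA only. The deposited columns are a score (10 times −log10 q without its decimals, in at least 99.9% of regions), the fold enrichment of the summit (a ratio computed by the authors' caller), and the −log10 p-value and −log10 q-value of the authors' caller. The deposited summit offset, counted in bases from the region's start, matched the summit files for all regions compared.

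Regions on the autosomes and X were read with Python 3.11.15 and pandas 2.3.3. Gene ends were those of RefSeq GRCh38.p14. The first annotated start came from the RefSeq promoter table, which held 58 of 73 members. K27ac regions that overlapped between the shNTC replicates were merged, and 1 shared bp counted as overlap. Widths are base pairs covered within 2 kb of both gene ends. Counting, overlap and width steps were checked on simulated lists. Depth per library is unknown, the files hold no counts, and no test was run, since each group had 1 library apart from shNTC with 2, so differences are descriptions.

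The members and lists were chosen with earlier results of these data known. Named were members missing a region in an ATAC or K27ac list, those with CTCF or HOXD13-HA regions, those lost or gained, the 5 highest, 5 lowest and 5 most variable by K27ac percentile, and 13 with known roles or places. Of those with CTCF only examples are given, some items are not reported here, and further names were chosen after their values were seen. Alternatives were other distances (1 and 5 kb), any base of a region, regions with −log10 q of at least 10, starts only, equal list lengths, single libraries left out, and members without neighbours.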

Additional observations from a re-analysis of the deposited data

Results flagged for a closer look

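Regions on alternative copies of chromosome segments lay outside the genes counted here and were found in 5 of the 15 lists. The A375-GFP ATAC list held 2747, shNTC 1073 in replicate 1 and 939 in replicate 2, shH3 622 and shH2 374. The other 10 lists held 0. Of these regions, copies of chromosome 6 held 876 in A375-GFP ATAC, 172 and 160 in shNTC, 92 in shH3 and 37 in shH2, and copies of chromosome 19 held 139, 40 and 34, 25 and 13. The 2 members without K27ac in shNTC, shH2 and shH3, RPS18 and RPS9, lie in such segments of these chromosomes.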

How the results depend on the processing

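Of the recomputed values, 114 kept within the interval or spread of the reported one and within 1.5 times of it, and 37 moved. The share of members with a region was 100% at 5 kb for SKMEL-5 ATAC and 45.2% at −log10 q of at least 10. At 1 kb, K27ac was 82.2% in 501mel, 80.8% in SKMEL-147, 90.4% in A375-GFP and 80.8 and 79.5% in shNTC. At −log10 q of at least 10 it was 41.1% in 501mel and 47.9% in SKMEL-147. In A375-GFP it was 100% at 5 kb, by any base, and without members that have neighbours, and in shNTC replicate 1 97.3% at 5 kb and by any base. Without RPS18 and RPS9 it was 100% in shH2 and shH3. CTCF in 501mel was 82.2% at 5 kb and 42.5% at −log10 q of at least 10, where SKMEL-5 had 64.4%. HOXD13-HA was 4.11% at 5 kb (3 members, against 15.1% of all genes), and 0% at −log10 q of at least 10 and without members with neighbours. Members gained were 6.85% at 1 kb, 4.11% at −log10 q of at least 10, 8.62% for starts only, 0% at 5 kb and by any base, and 2.74 to 6.85% with either shNTC replicate left out. Members lost were 0 under every alternative. Regions lost were 1.27% in lists of equal length, 24.8 to 30.6% with either shNTC replicate left out, 30.8% for shH2 alone, 47.9% where 50% of the region must be shared (47.5% over all gene ends) and 6.76% at −log10 q of at least 10 (23.7%). The width ratio was 0.602 with equal lists, 0.541 to 0.554 with either replicate left out, 0.471 for shH2 and 0.573 for shH3 alone. The alternatives of any base for lost regions, no neighbours for widths, and members near regions in both shNTC replicates for lost members were chosen after seeing the data. The alternative of starts only covered 58 members. No paired analysis was possible because the hairpin libraries carry no replicate number. List length stands in for depth, which is unknown.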
